A study of Sus scrofa with 16 samples.

Results

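A set of 8 hormone and neurotransmitter signaling genes was followed in the hearts of young pigs: *AGT*, *ACE* and *AGTR1* of the angiotensin pathway, *EDN1*, *EDNRA* and *EDNRB* of the endothelin pathway, and the adrenergic receptors *ADRB1* and *ADRA1A*. They are a precursor, an enzyme, a ligand and receptors of these pathways, listed by name, and all 8 were found among the 22629 genes listed. Each passed the filter on low counts in every comparison. The myocardium came from White Yorkshire-Landrace farm pigs operated on at 30 days of age. In 4 pigs (2 females and 2 males) the left anterior descending coronary artery was tied for 1 h and then reperfused (IR), and in 4 sham-operated pigs (2 females and 2 males) the suture was placed but not tightened (0 h of ischemia). Hearts were collected 4 weeks after surgery, and RNA was sequenced from 2 left ventricular zones of each pig, giving 16 samples in 4 groups of 4. The scar zone lay just below the suture site and in IR pigs held scar together with surviving myocardium, and the same site in sham pigs carries the same name. The border zone lay next to it.

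All pigs, sham included, received ketamine, xylazine (an agonist of alpha2-adrenergic receptors), isoflurane and amiodarone (an antiarrhythmic that also dampens adrenergic responses), followed by buprenorphine, bupivacaine and antibiotics. Heparin was given to all IR pigs, and the study does not say whether sham pigs received it. Epinephrine, the ligand of the adrenergic receptors measured here, and lidocaine were given where an animal had an arrhythmia or bradycardia, and the animals concerned are not named in the labels. The part of these drugs in any value below was not tested.

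In the angiotensin pathway, angiotensinogen, the product of *AGT*, is cut to angiotensin I, and angiotensin-converting enzyme (*ACE*), found mainly on endothelium, trims it to angiotensin II, which acts through the type 1 receptor (*AGTR1*) to constrict vessels and promote fibrosis. Endothelin-1 (*EDN1*) is a vasoconstrictor peptide made largely by endothelium, with a type A receptor (*EDNRA*) on smooth muscle and cardiomyocytes and a type B receptor (*EDNRB*) that is prominent on endothelium and also clears the peptide. Norepinephrine from sympathetic nerves and circulating epinephrine act on the heart mainly through the beta1 receptor (*ADRB1*), which raises cyclic AMP, rate and contractility, and through the alpha1A receptor (*ADRA1A*), which couples to phospholipase C in cardiomyocytes. Loss of beta1 receptors is a known feature of failing adult hearts.

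The library totals ran from 15427663 to 49045206 estimated counts, and 3 counts, taken as the floor of detection, correspond to 0.0696 to 0.204 CPM (counts relative to the library total after TMM scaling). Cardiomyocyte markers were abundant in all 16 samples (59774 to 95134 CPM summed over 8 genes), and none of the 8 was at 0. A pair of libraries stood apart. Summed over 8 fibroblast markers, the scar zone of IR pigs 9 and 11, which are the 2 males, held 24358 and 33004 CPM, whereas IR pigs 2 and 14 held 5893 and 4743 CPM and the 4 sham scar zone samples held 5595 to 7467 CPM. The border zone samples all held between 5174 and 7896 CPM. Between IR and sham scar zones, 3 of the 8 fibroblast markers were higher at an unadjusted p of at most 0.05 (edgeR, 11.2% of all genes). The two-sided exact permutation p of their sum was 0.400. The same libraries of pigs 9 and 11 were the highest scar zone samples in summed leucocyte markers (303 and 331 CPM, the others 125 to 246). They were also highest in summed epicardial markers (11.6 and 15.3 CPM, the others 5.30 to 8.22). Scar zone changes that moved with pigs 9 and 11 are therefore also given without them, an alternative chosen after seeing the data. It leaves only female IR pigs, set against sham pigs of both sexes.

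Between genes, levels are comparable only per transcript length, in TPM, which scales estimated counts by transcript length and library total. The type A endothelin receptor *EDNRA* had a median of 32.4 TPM over the 16 samples, followed by *AGT* at 30.8 TPM and *ADRB1* at 18.0 TPM. These were followed by *ACE* at 14.9 TPM, *AGTR1* at 6.53 TPM, *EDNRB* at 4.05 TPM, *EDN1* at 1.80 TPM and *ADRA1A* at 1.66 TPM. The receptors thus spanned the whole range, with the dominant endothelin and adrenergic subtypes (*EDNRA*, *ADRB1*) near the top and their partners (*EDNRB*, *ADRA1A*) near the bottom. Some neighbours in this order were not separated by sample. *EDNRA* lay above *AGT* in 8 of 16 samples, *AGT* above *ADRB1* in 11, *ADRB1* above *ACE* in 9 and *EDN1* above *ADRA1A* in 9. *ACE* exceeded *AGTR1* in 15 of 16 samples, and the steps from *AGTR1* to *EDNRB* and from *EDNRB* to *EDN1* held in 16 of 16.

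In the scar zone, 0 of the 8 genes passed an adjusted p of 0.05 with a fold change of 2 between IR and sham pigs (edgeR, Benjamini-Hochberg over 14023 genes), where the background over all genes was 0%. DESeq2 gave 52 such genes among the 14023, with 0 of the 8 among them. At an unadjusted p of at most 0.05, *ADRB1* and *EDNRA* passed, both lower in IR pigs, which is 2 of 8 against 11.2% of all genes. The median log2 fold change of the 8 genes was -0.15, and that of all genes was 0.03. Border zone samples gave 0 of the 8 genes at the adjusted p (background 0%, and 2 genes with DESeq2, 0 of the 8 among them) and 0 at the unadjusted p (background 3.78% of 13728 genes). There the median was -0.01 for the 8 genes and 0.00 for all genes. The adjusted p-values of the 8 genes over all settings tried, with edgeR, DESeq2 or limma, were between 0.184 and 0.997 in the scar zone. In bulk tissue, fewer cells of a type and less RNA per cell cannot be told apart.

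**Figure D1:**
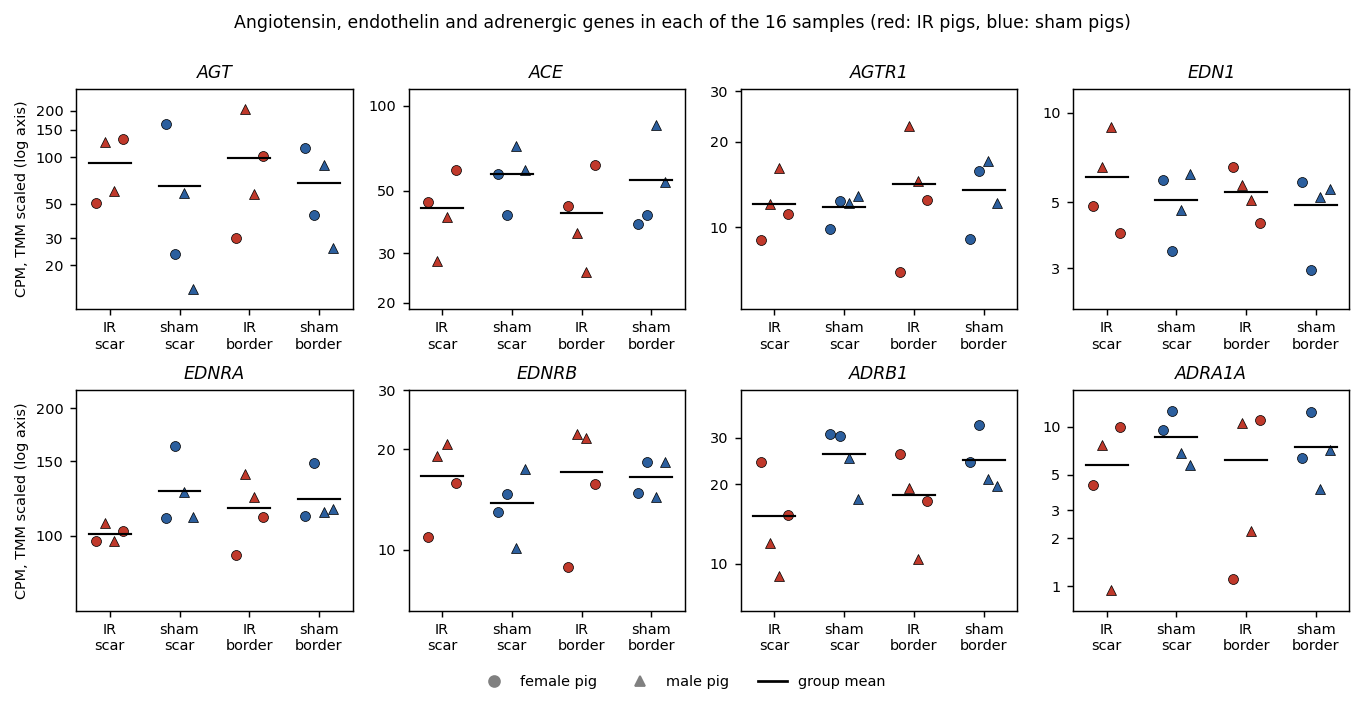
Level of each of the 8 genes in every sample (y axis, CPM after TMM scaling, log axis), by surgery and zone (x axis), with IR pigs in red, sham pigs in blue, circles for females, triangles for males and a black bar for the mean of 4 pigs. *EDNRA* in the scar zone is the 1 case in which the IR and sham values do not overlap (97.1 to 107 against 110.2 to 163 CPM).

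**Figure D2:**
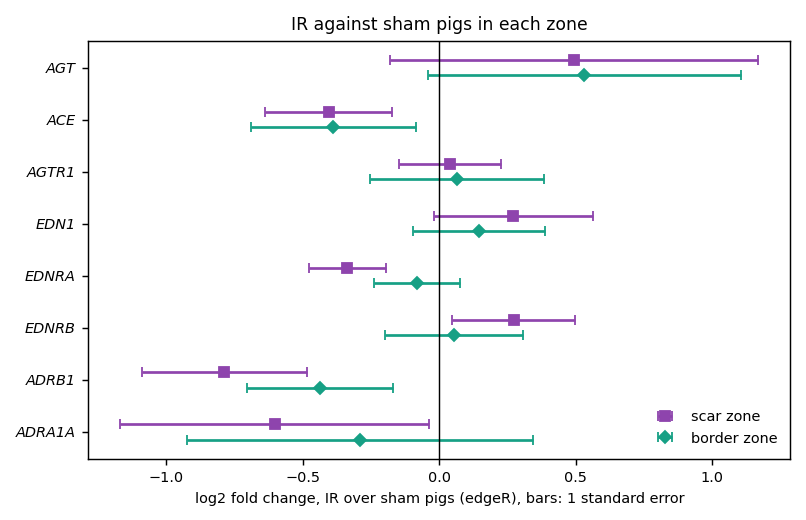
Log2 fold change of IR over sham pigs (x axis, edgeR) for each gene in the scar zone (purple squares) and border zone (green diamonds), with bars of 1 standard error. *ADRB1* lies lowest in both zones, at -0.79 and -0.44, and *AGT* has the highest values and wide bars.

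Changes are given as the log2 fold change of IR over sham pigs with its standard error (SE). For edgeR, here and in the figures, the SE was calculated back from the test. It is the size of the change divided by the square root of the quasi-likelihood F statistic. *AGT*, the precursor of all angiotensins, was the most variable of the 8 genes from pig to pig, and it varied more between animals than between the zones of 1 animal. In the scar zone it was at 50.6, 125, 60.8 and 131 CPM in IR pigs 2, 9, 11 and 14, and at 163, 23.7, 59.0 and 14.1 CPM in sham pigs 4, 5, 12 and 13. The sham pigs thus held both the highest value and the lowest, and the groups overlapped. It came to 0.49 (SE 0.68), with an adjusted p of 0.770 (edgeR) and a two-sided exact permutation p of 0.343. The permutation test compared mean log2 CPM, 6.40 in IR and 5.41 in sham pigs, and limma on log2(TPM + 1) and log2(TPM + 0.1) gave larger changes of 1.10 and 1.16. Leaving out single pigs moved the edgeR change between 0.16 (without sham pig 13) and 1.5 (without sham pig 4, edgeR adjusted p = 0.606, past the unadjusted threshold). It was 0.22 without sham pig 5, 0.28 without IR pig 14 and 0.28 without IR pig 9. Next to the scar, in the border zone, *AGT* was at 30.1, 206, 57.9 and 101 CPM in IR pigs and at 114, 42.4, 88.9 and 26.1 CPM in sham pigs. Sham pig 4 was again the highest of its group and sham pig 13 the lowest, and the log2 fold change was 0.53 (SE 0.57, edgeR adjusted p = 0.988). Over all samples *AGT* varied 14.5-fold. The standard deviation between pigs was 1.10 on the log2 scale, and that of the difference between the zones of 1 pig was 0.64.

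*ACE* had lower means in IR pigs in both zones, within the spread between pigs. Its scar zone values were 45.4, 28.2, 40.4 and 59.0 CPM in IR pigs 2, 9, 11 and 14, and 57.1, 41.0, 71.8 and 59.0 CPM in sham pigs 4, 5, 12 and 13. The male IR pigs 9 and 11 were the 2 lowest of the 8 and the groups overlapped. The change was -0.40 (SE 0.23, edgeR adjusted p = 0.501), the exact permutation p was 0.229, and without IR pigs 9 and 11 the change was -0.13. With limma on log2(TPM + 1) it was -0.21. Without IR pig 14 it was -0.59 and without sham pig 5 it was -0.54, both past the unadjusted threshold, with edgeR adjusted p-values of 0.246 and 0.782. Border zone *ACE* was at 44.0, 35.5, 25.7 and 61.7 CPM in IR pigs and 38.1, 41.1, 85.2 and 53.4 CPM in sham pigs. The groups overlapped here too, with the highest value in sham pig 12, a male. The change of -0.39 (SE 0.30, edgeR adjusted p = 0.988) became -0.09 without sham pig 12. Summed markers of endothelium, the main site of *ACE*, were at 899 to 1239 CPM in the IR scar zone and 1100 to 1222 CPM in the sham scar zone, and 0 of the 8 passed the unadjusted threshold. Their part in the values of *ACE* was not tested.

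*AGTR1*, the receptor through which angiotensin II acts, differed little in mean between the groups. In the scar zone it was at 9.06, 12.1, 16.2 and 11.1 CPM in IR pigs and at 9.86, 12.4, 12.2 and 12.9 CPM in sham pigs, with the sham values inside the IR range. IR and sham pigs differed by 0.04 (SE 0.19, edgeR adjusted p = 0.937, exact permutation p = 1), by -0.22 without IR pigs 9 and 11 and by 0.18 with limma on log2(TPM + 1). Border zone values ranged from 7.0 to 22.7 CPM in IR pigs and from 9.09 to 17.1 CPM in sham pigs, a change of 0.07 (SE 0.32, edgeR adjusted p = 0.995). IR pig 9 held the highest border zone value and IR pig 2 the lowest.

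*EDN1*, the endothelin ligand, was among the lowest of the 8 genes, with 58.0 to 300.0 estimated counts per sample. It was at 4.87, 6.56, 8.93 and 3.94 CPM in the scar zone of IR pigs and 5.95, 3.42, 4.70 and 6.22 CPM in that of sham pigs. IR pigs 11 and 9 were the 2 highest, and the groups overlapped (log2 fold change 0.27, SE 0.29, edgeR adjusted p = 0.697, exact permutation p = 0.543). Without these 2 pigs the log2 fold change turned to -0.19. The border zone values lay between 4.26 and 6.56 CPM in IR pigs and between 2.96 and 5.83 CPM in sham pigs, a change of 0.14 (SE 0.24, edgeR adjusted p = 0.990).

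*EDNRA*, the type A receptor that mediates the constrictor action of endothelin, was lower in the scar zone of every IR pig than in that of any sham pig. Its values were 97.4, 107, 97.1 and 103 CPM in IR pigs 2, 9, 11 and 14, and 110.2, 163, 127 and 111 CPM in sham pigs 4, 5, 12 and 13. The IR values lay close together, at 101 ± 4.90 CPM (SD, n = 4), and the sham values were spread, at 128 ± 24.8 CPM (SD, n = 4). The lowest sham value exceeded the highest IR value by a small step. The two-sided exact permutation p was 0.0286, the smallest that 4 pigs against 4 allow. Genes without overlap and lower in IR pigs made up 2.85% of all genes tested in the scar zone, and those higher in IR pigs 2.03%, with 1 and 0 of the 8 genes. On the log2 scale the change was -0.34 (SE 0.14), with an adjusted p of 0.438 (edgeR) and 0.327 (DESeq2). It was -0.35 without IR pigs 9 and 11, whose fibroblast markers were high, and -0.20 without sham pig 5, and the unadjusted threshold was still passed without IR pig 9, sham pig 4 or sham pig 13 but not without any 1 of the other 5 pigs. In TPM the order did not hold: *EDNRA* was at 27.4 to 45.3 TPM in the IR scar zone and 29.7 to 42.9 TPM in the sham scar zone, and limma on log2(TPM + 1) gave a difference of -0.13.

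Outside the scar zone, in the border zone, *EDNRA* was at 90.0, 140.2, 124 and 111 CPM in IR pigs and 111, 148, 114 and 116 CPM in sham pigs. The groups overlapped, with the lowest value in IR pig 2 and the highest in sham pig 5, and the log2 fold change was -0.08 (SE 0.16, edgeR adjusted p = 0.993, exact permutation p = 0.629). No gene of the 8 had separate IR and sham values in the border zone, where 1.22% of all genes were lower and 0.838% were higher without overlap.

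*EDNRB*, the type B receptor, had a higher mean in the IR scar zone, opposite in sign to *EDNRA*. It was at 10.9, 19.1, 20.7 and 15.8 CPM in IR pigs and 13, 14.6, 10.2 and 17.4 CPM in sham pigs. IR pigs 9 and 11 were above all sham pigs and IR pig 2 was below 3 of them. The change was 0.27 (SE 0.23, edgeR adjusted p = 0.613, exact permutation p = 0.400), -0.04 without IR pigs 9 and 11 and 0.43 with limma on log2(TPM + 0.1). Border zone values were 8.88, 22.2, 21.6 and 15.8 CPM in IR pigs and 14.8, 18.3, 14.4 and 18.4 CPM in sham pigs, a change of 0.06 (SE 0.25, edgeR adjusted p = 0.995). The ratio of *EDNRA* to *EDNRB* in TPM, a measure of receptor balance, had a median of 6.61 (5.11 to 9.73) in the IR scar zone and 10.7 (6.94 to 13.6) in the sham scar zone. The lowest values were those of IR pigs 11 and 9, at 5.11 and 6.13, and IR pigs 2 and 14, at 9.73 and 7.09, lay inside the sham range (two-sided exact permutation p = 0.143). The border zone ratio was 6.24 to 11 in IR pigs and 6.88 to 8.85 in sham pigs (exact permutation p = 0.714).

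*ADRB1*, the main beta-adrenergic receptor of the heart, had the lowest log2 fold change of the 8 genes in the scar zone. It was at 24.2, 12, 8.99 and 15.3 CPM in IR pigs 2, 9, 11 and 14, and at 30.9, 30.5, 25.2 and 17.7 CPM in sham pigs 4, 5, 12 and 13. IR pigs 9, 11 and 14 lay below every sham pig, and IR pig 2 lay above sham pig 13. The mean was 15.1 ± 6.57 CPM in the IR group and 26.0 ± 6.17 CPM in the sham group (SD, n = 4 each). This was a 1.73-fold lower level, or -0.79 on the log2 scale (SE 0.30), with an adjusted p of 0.438 (edgeR) and 0.251 (DESeq2). The two-sided exact permutation p was 0.0571. Within each sex the IR values were the lower ones, at 24.2 and 15.3 against 30.9 and 30.5 CPM in females and at 12 and 8.99 against 25.2 and 17.7 CPM in males. With sex in the fit the log2 fold change was -0.83 (edgeR adjusted p = 0.184).

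The size of the *ADRB1* difference moved with the pigs included. The IR pigs with the lowest *ADRB1*, 11 and 9, are those with the highest fibroblast markers, and without both the log2 fold change was -0.39. That fit has no male IR pig, and the male sham pigs had lower *ADRB1* than the female ones. With each pig left out in turn the log2 fold change lay between -0.60 (without IR pig 11) and -1.12 (without IR pig 2), and the unadjusted threshold was not passed without IR pig 9 or 11 or without sham pig 4 or 5. The part of tissue makeup in this difference was not tested. Cardiomyocyte markers summed to 59774 CPM in the scar zone of IR pig 9 and 71950 CPM in that of IR pig 11, against 66507 to 95134 CPM in sham pigs. Beyond the scar, in the border zone, where the fibroblast markers of pigs 9 and 11 lay near the others, *ADRB1* was at 26.0, 19.4, 10.4 and 17.4 CPM in IR pigs and 24.2, 33.6, 20.9 and 19.7 CPM in sham pigs. IR pigs 9, 11 and 14 were again below all sham pigs and IR pig 2 was above 3 of them. The change there was -0.44 (SE 0.27, edgeR adjusted p = 0.988, exact permutation p = 0.200). With each pig left out in turn it lay between -0.24 and -0.65. The latter, without IR pig 2, was past the unadjusted threshold (edgeR adjusted p = 0.773).

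*ADRA1A*, the alpha1A receptor, was low and uneven, with 23.0 to 372 estimated counts per sample. Scar zone values were 4.30, 7.72, 0.953 and 10.1 CPM in IR pigs and 9.54, 12.6, 6.87 and 5.78 CPM in sham pigs. IR pig 11 was lowest by far, IR pig 2 was also below all sham pigs, and IR pigs 9 and 14 lay within the sham range. The change was -0.60 (SE 0.57, edgeR adjusted p = 0.653, exact permutation p = 0.314), -0.28 without IR pigs 9 and 11 and -0.39 with limma on log2(TPM + 1). With each pig left out in turn it lay between -0.996 and -0.238. Border zone levels in IR pigs were 1.11, 10.6, 2.23 and 11 CPM and in sham pigs 6.37, 12.5, 4.08 and 7.18 CPM. There IR pigs 2 and 11 were below all sham pigs, while IR pigs 9 and 14 were above 3 of the 4 sham pigs, and the log2 fold change was -0.29 (SE 0.63, edgeR adjusted p = 0.993), or -0.61 with limma on log2(TPM + 0.1). The ratio of *ADRB1* to *ADRA1A* in TPM was 21.2, 5.74, 40.2 and 5.67 in the scar zone of IR pigs 2, 9, 11 and 14 and 8.35 to 13 in that of sham pigs, with medians of 13.5 and 11.1 (two-sided exact permutation p = 0.743). Border zone ratios were 95.3, 6.44, 16.0 and 5.69 in the IR pigs and 9.13 to 19.4 in sham pigs, with medians of 11.2 and 11.7 (exact permutation p = 0.886). IR pigs 9 and 14 thus lay below every sham pig in both zones, and the highest ratio of each zone, in IR pig 11 and IR pig 2, was in the sample with the lowest *ADRA1A*. The estimated count per TPM of *ADRA1A*, relative to that of *ACE* in the same sample, was 1.21 and 1.16 times its median in the latter 2 samples (range over all samples 0.944 to 1.21), so the effective transcript length behind its estimate was not the same in all samples.

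Whether the IR effect differed between the zones was tested as the effect in the scar zone minus that in the border zone over all 16 samples. None of the 8 genes passed at the adjusted p (edgeR, background 0% of 14278 genes, DESeq2 0 genes) and 0 passed at the unadjusted p (background 2.22%). The median of the 8 differences was -0.03, against 0.01 for all genes. Comparing the zones within IR pigs, 0 of the 8 genes passed at the adjusted p (edgeR, background 0%, DESeq2 4 genes) and 0 at the unadjusted p (background 4.35%). Within sham pigs, 0 passed at either (backgrounds 0% and 0.819%, DESeq2 1 gene). With the pig as a replicate block, which pairs both zones of an animal, the shares of all genes at the unadjusted p were 6.99%, 11.3% and 4.77% in these 3 tests, and *EDNRB* in sham pigs was the 1 gene of the 8 to pass (log2 difference -0.27, edgeR adjusted p = 0.931).

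Pig by pig, *ADRB1* had less RNA in the scar zone than in the border zone of all 4 IR pigs, with differences of -0.10, -0.69, -0.21 and -0.18 on the log2 scale. The mean log2 difference between the zones of a pig (scar minus border) was -0.30 ± 0.27 over the IR pigs and 0.08 ± 0.27 over the sham pigs (SD, n = 4 each, two-sided exact permutation p = 0.114), and 2 of the 4 sham pigs were lower in the scar zone. *EDNRA* was lower in the scar zone in 3 of 4 IR pigs and 2 of 4 sham pigs, with means of -0.18 ± 0.23 and 0.05 ± 0.11 (exact permutation p = 0.114). *EDNRB* was lower in the scar zone in all 4 sham pigs, with a mean of -0.27 ± 0.18, and in 2 of 4 IR pigs, with a mean of 0.00 ± 0.21 (exact permutation p = 0.114). *AGT* showed no common direction, with 1 of 4 IR pigs and 3 of 4 sham pigs lower in the scar zone (exact permutation p = 0.286). *ADRA1A* differed by up to 1.88 between the zones of 1 animal, IR pig 2. For *ACE*, *AGTR1* and *EDN1* the exact permutation p of this difference was between 0.83 and 0.914.

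**Figure D3:**
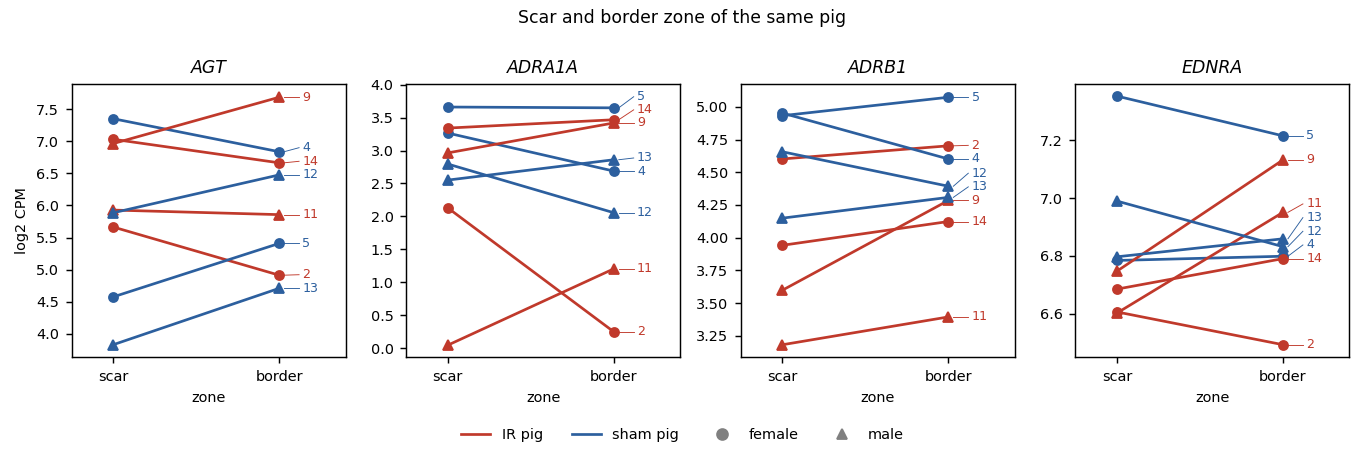
Log2 CPM (y axis) of 4 of the genes in the scar and border zone (x axis) of each pig, joined by a line and numbered, with IR pigs in red, sham pigs in blue, circles for females and triangles for males. For *ADRB1* the 4 red lines all climb from scar to border, and for *AGT* the pigs keep most of their order between zones.

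The IR effect was also compared between males and females, a contrast added after seeing the data, with 2 pigs of each sex in each group. In the scar zone 0 of the 8 genes passed at the adjusted p (edgeR, background 1.5%) and 1 passed at the unadjusted p (background 18.7%). The border zone contrast gave 0 genes at the adjusted p (edgeR, background 0.0146%) and 1 at the unadjusted p (background 6.89%). The gene was *ACE* in both zones. DESeq2 passed 711 of 14023 genes at its adjusted p and the fold change of 2 in the scar zone (5.07%), with 0 of the 8 among them, and 45 of 13728 in the border zone (0.328%), with *ACE* as the 1 of the 8. The male IR pigs are pigs 9 and 11, whose scar zone fibroblast markers were high, so in the scar zone sex and these libraries cannot be told apart. Border zone *ACE* was at 35.5 and 25.7 CPM in male IR pigs against 85.2 and 53.4 CPM in male sham pigs, and at 44.0 and 61.7 CPM in female IR pigs against 38.1 and 41.1 CPM in female sham pigs. The IR values were thus the lower ones in males and the higher ones in females. The IR effect in males minus that in females was -1.60 in the border zone (SE 0.38, adjusted p = 0.532 with edgeR and 0.0348 with DESeq2) and -1.01 in the scar zone (SE 0.34, adjusted p = 0.166 with edgeR and 0.0582 with DESeq2). In the scar zone it was -0.60 with limma on log2(TPM + 1).

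Around these 8 genes, a list of 83 other genes of the pathways (angiotensin and kinin processing, endothelin processing, other adrenergic receptors, receptor kinases and arrestins, catecholamine handling, and the G proteins, cyclases, phosphodiesterases and kinases downstream) had 77 genes in the tables. Of 66 tested in the scar zone, 0 passed at the adjusted p (edgeR), and 4 were higher and 6 lower at the unadjusted p, which is 15.2% against 11.2% of all genes. Of 65 tested in the border zone, 0 passed at the adjusted p, and 2 were higher and 3 lower at the unadjusted p, which is 7.69% against 3.78%. The median log2 fold change of the list was -0.02 in both zones. Without IR pigs 9 and 11, 2 of the 66 were higher and 3 lower at the unadjusted p in the scar zone, where the share of all genes was 5.48%. IR and sham CPM did not overlap in 5 of 66 in the scar zone, all lower in IR pigs (*ADRA2C*, *ADCY6*, *ENPEP*, *GRK5* and *GNAS*, 7.58% against 2.85% of all genes), and in 1 of 65 in the border zone (*MAOB*, lower in IR pigs, 1.54% against 1.22%). Measured in TPM, *ADCY6* overlapped (160.6 in IR pig 2, 159.3 in sham pig 13). So did *ENPEP* (10.6 in IR pig 9, at most 8.70 in sham pigs) and border zone *MAOB* (9.53 in IR pig 2, 8.65 in sham pig 4). *ADRA2C* stayed apart, at 1.36 to 2.83 TPM in IR and 3.59 to 5.01 TPM in sham pigs. In the test of the difference between zones, 1 of 66 (*HSD11B2*) passed at the unadjusted p, which is 1.52% against 2.22% of all genes. This gene had opposite signs by zone, with a change of 0.84 at the scar (SE 0.36, exact permutation p = 0.143) and -0.44 at the border (SE 0.27, exact permutation p = 0.0571). The difference was 1.29 (SE 0.43, edgeR adjusted p = 0.9998). Its level was low, at 0.815 to 2.61 CPM in the IR scar zone.

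Several other members of the receptor and ligand families were low. The type 2 angiotensin receptor *AGTR2* reached at most 1 estimated count in a sample, the Mas receptor *MAS1* at most 6, endothelin-2 (*EDN2*) at most 2 and the beta3 receptor *ADRB3* at most 5, so none could be compared. The catecholamine-synthesis genes *TH* and *DBH* had at most 0 and 1. *PNMT*, another gene of this kind, was present, at 1.28 to 10.2 CPM in the IR scar zone and 3.68 to 6.76 CPM in the sham scar zone. Its scar zone log2 fold change was -0.27 (SE 0.56, edgeR adjusted p = 0.843). Endothelin-converting enzyme *ECE1*, which releases active endothelin, was at 79.0 to 97.6 CPM in the scar zone with a log2 fold change of 0.12 (SE 0.11, edgeR adjusted p = 0.651). For *ADRA1B* the log2 fold change was -1.0 (SE 0.54), for *ADRA1D* 0.12 (SE 0.51), and for *GRK2*, the kinase that desensitizes beta receptors, -0.14 (SE 0.13), with edgeR adjusted p-values of 0.490 for *ADRA1B* and 0.926 for *ADRA1D*. The lowest scar zone values of *ADRA1B* were those of IR pigs 9 and 11, at 2.35 and 6.88 CPM, and the highest was that of sham pig 5, at 33.2 CPM. Its change was -0.44 without IR pigs 9 and 11 and also -0.44 without sham pig 5.

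Among the listed genes at the unadjusted p in the scar zone, *ADRA2C*, an alpha2 receptor that restrains norepinephrine release, was at 2.93, 1.56, 2.20 and 1.49 CPM in IR pigs and 3.54, 4.81, 5.17 and 4.87 CPM in sham pigs. Every IR value was below every sham value, with a log2 fold change of -1.17 (SE 0.27, edgeR adjusted p = 0.438, exact permutation p = 0.0286), and -1.04 without IR pigs 9 and 11. Another alpha2 receptor, *ADRA2A*, did not pass the filter on low counts and had a higher mean in the IR scar zone: it was at 1.49 and 3.81 CPM in IR pigs 9 and 11, at 0.229 and 0.340 CPM in IR pigs 2 and 14, and at 0.0361 to 0.260 CPM in sham pigs (exact permutation p = 0.0571). *ADCY6*, a cardiac adenylyl cyclase driven by beta receptors, was at 448, 247, 216 and 401 CPM in IR pigs and 457, 690.5, 582 and 473 CPM in sham pigs, without overlap in CPM but not in TPM (log2 fold change -0.74, SE 0.25, exact permutation p = 0.0286), and its change was -0.37 without IR pigs 9 and 11. *PDE3A*, which breaks down cyclic AMP, had a log2 fold change of -0.63 (SE 0.21), the kinase subunit gene *PRKAR2A* -0.37 (SE 0.16), the aminopeptidase gene *ENPEP* -0.39 (SE 0.16) and the mineralocorticoid receptor *NR3C2* -0.30 (SE 0.12). The higher ones were *RCAN1*, a calcineurin regulator, at 0.87 (SE 0.28), *RGS2*, which shortens G protein signaling, at 0.73 (SE 0.28), *HSD11B2*, which inactivates glucocorticoids, at 0.84 (SE 0.36), and the aminopeptidase gene *ANPEP* at 2.22 (SE 0.72). *ANPEP* was at 8.45 and 6.85 CPM in IR pigs 9 and 11 and at 0.303 to 1.36 CPM in the other 6 scar zone samples. All 10 had an edgeR adjusted p of 0.438 in the scar zone. Without IR pigs 9 and 11 the changes were 0.28 for *ANPEP*, 0.24 for *HSD11B2*, 0.20 for *RGS2*, 1.09 for *RCAN1*, -0.42 for *PDE3A*, -0.29 for *PRKAR2A*, -0.48 for *ENPEP* and -0.19 for *NR3C2*. *ADRA2C*, *ADCY6*, *PDE3A*, *RCAN1* and *ANPEP* passed the unadjusted threshold with any single pig left out and the other 5 did not, and *HSD11B2* was at 0.49 without IR pig 9 and *RGS2* at 0.38 without IR pig 11. Of the 5 listed genes at the unadjusted p in the border zone, *MAOB*, which degrades monoamines, was at 19.2, 15.2, 9.92 and 18.1 CPM in IR pigs and 19.8, 33.4, 25.9 and 26.2 CPM in sham pigs (log2 fold change -0.76, SE 0.23, edgeR adjusted p = 0.988, exact permutation p = 0.0286). The other lower genes were the related oxidase gene *MAOA*, at -0.35 (SE 0.15), and *ARRB1*, an arrestin that binds phosphorylated receptors, at -0.28 (SE 0.12). The higher ones also handle monoamines: the vesicular transporter gene *SLC18A2* at 0.58 (SE 0.26), with 6.39 to 9.70 CPM in IR and 4.03 to 8.25 CPM in sham pigs, and the decarboxylase gene *DDC* at 2.39 (SE 1.05). *DDC* was at 15.8, 0.228, 2.36 and 1.05 CPM in IR pigs 2, 9, 11 and 14 and at 0.409 to 1.77 CPM in sham pigs, so 1 library carried the difference, and without IR pig 2 the change was 0.42. The exact permutation p was 0.429 for *DDC* and 0.0571 for *SLC18A2*, *MAOA* and *ARRB1*, and these 4 genes had an edgeR adjusted p of 0.988 as well. *MAOB* passed the unadjusted threshold whichever pig was left out and the other 4 did not, and *MAOA* was at -0.22 without sham pig 4.

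**Figure D4:**
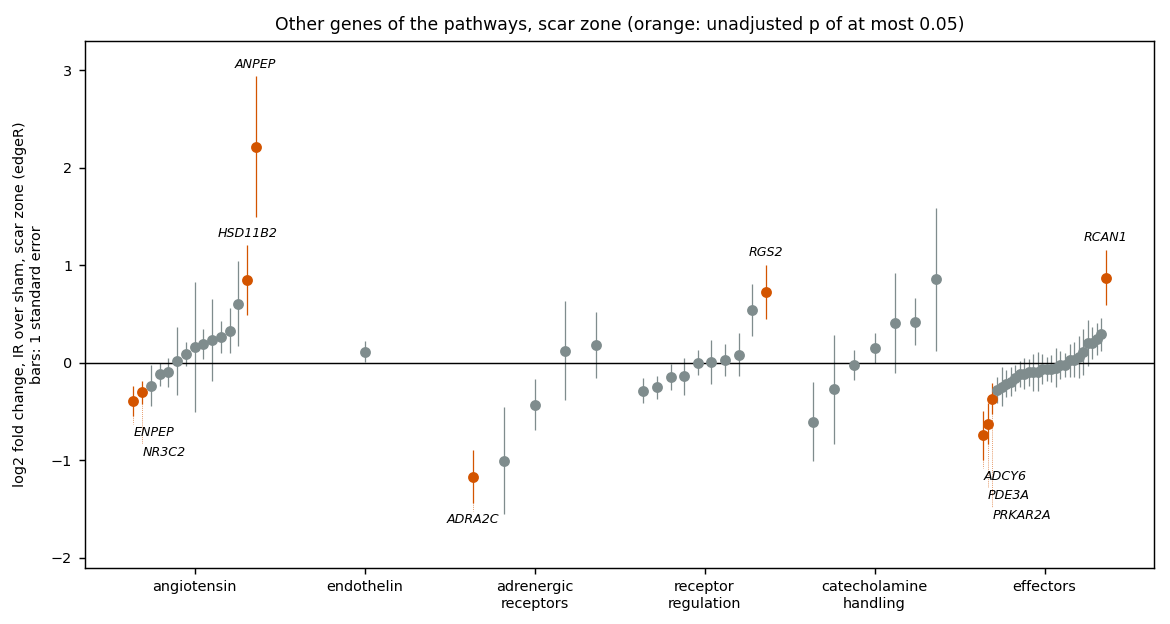
Log2 fold change of IR over sham pigs in the scar zone (y axis, edgeR, bars of 1 standard error) for the 66 other pathway genes tested, by group of the list (x axis), with the 10 at an unadjusted p of at most 0.05 in orange and named. The lower named genes are *ADRA2C*, *ADCY6*, *PDE3A*, *PRKAR2A*, *ENPEP* and *NR3C2*, and *ANPEP* is the highest, at 2.22.

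By pattern over the 16 samples, the gene most like each of the 8 was sought among 10461 genes listed by symbol, by the Pearson correlation of log2 CPM. For *ADRB1* these were *KIF26A* (r = 0.97) and *CTBP1* (r = 0.95), for *ADRA1A* *PDE3A* (r = 0.92) and *ACACB* (r = 0.91), and for *EDNRA* *AP4B1* (r = 0.92) and *ASB4* (r = 0.91). For *EDNRB* they were *TMEM209* (r = 0.90) and *ASAH1* (r = 0.89), for *EDN1* *LY86* (r = 0.90) and *PSTPIP1* (r = 0.89), and for *AGT* *LPXN* (r = 0.90) and *CCL5* (r = 0.83). For *ACE* the gene given here is *RBFOX2* (r = 0.86), and for *AGTR1* *GPCPD1* (r = 0.85) and *NR1D2* (r = 0.85). The 16 samples come from 8 pigs and share libraries and depth across genes, so these are descriptions. Between the 8 genes themselves the correlations ran from -0.66 between *ADRA1A* and *EDN1* to 0.74 between *AGTR1* and *EDNRB*. The genes named above are the highest of a search, so their values are not a yardstick for these.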

How the data were processed

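Polyadenylated RNA of 16 samples, 4 each from the scar and border zone of IR and sham pigs, was made into stranded libraries and sequenced. Per the labels and the study's methods, the authors used Trimmomatic 0.33, HISAT2 2.0.5 and kallisto 0.43.1 with Ensembl pig cDNA. The genome build is not given in the sources used here. The authors deposited estimated counts, which kallisto derives by dividing reads among transcripts, so genes with similar sequences depend on that division. A second deposited table holds TPM, scaled by transcript length and depth. Both list 22629 genes, 15095 by symbol and 7534 by Ensembl ID, of which 915 were named from a gene table.

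The estimated counts were rounded and tested in R 4.3.3 with edgeR 4.0.16 (TMM scaling, filterByExpr with a minimum count of 10 and a minimum total of 15, quasi-likelihood test, p-values adjusted by Benjamini-Hochberg across the genes kept). To pass, a gene needed a fold change of 2 and an adjusted p of no more than 0.05, and counts at an unadjusted p of at most 0.05 are given beside. CPM are TMM-scaled over all samples, and log2 CPM has a prior count of 2. Exact permutation tests were two-sided. They used log2 CPM or its difference between zones for single genes, log2 of the TPM ratios, and log2 of summed CPM for markers. The floor of 3 counts covers counting error only. The study's package RUVSeq was not used here.

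Comparisons were IR against sham pigs in each zone, the difference between zones, and scar against border zone within each surgery group. Replicate numbers are pig numbers, so both zones of a number come from the same animal, and the deviations of each pig's zones from their group means had correlations of 0.354 to 0.692 over 14278 genes. Alternatives were DESeq2 1.42.0, upper-quartile scaling, no filter, sex as a covariate, trended limma 3.58.1 fits of log2(TPM + 1) and log2(TPM + 0.1) over genes reaching a TPM of 1 in 4 samples or more, 1 fit of 16 samples, the pig as a replicate block, and leaving out each pig. The sex contrasts and leaving out IR pigs 9 and 11 were added after seeing the data.

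The 8 genes and the lists were chosen with earlier results of these data known. Genes named beside the 8 are those of the pathway list at an unadjusted p of at most 0.05 in IR against sham pigs or in the difference between zones, at most 12 by the smallest p, family members of the 8 genes, and the 2 genes most correlated with each of the 8. Some of these are not reported here. *MAS1*, *TH*, *DBH*, *PNMT*, *ADRA2A*, *GRK5*, *GNAS*, *ARRB1*, *DDC* and *SLC18A2* were named outside this rule after their values were seen.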

Additional observations from a re-analysis of the deposited data

Results flagged for a closer look

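*EDNRA* in the sham border zone was at 148 CPM in pig 5, apart from the other 3 sham pigs at 111 to 116 CPM. This was the 1 sample to stand apart by Dixon's criterion in 32 groups of 4 samples, and chance sets off this criterion in about 5% of groups. The same pig had the highest *EDNRA* in the scar zone, at 163 CPM.

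In the border zone the IR effect on *ACE* ran in opposite directions in the sexes, with both male IR pigs below both male sham pigs and both female IR pigs above both female sham pigs. The difference was tested and did not pass the adjusted threshold with edgeR (males minus females -1.60 on the log2 scale, adjusted p = 0.532), whereas DESeq2 gave an adjusted p of 0.0348. With each pig left out in turn the difference was between -1.90 and -1.22. For *EDNRA* in the border zone the directions were the reverse, with male IR pigs above and female IR pigs below the sham pigs of their sex (0.57 on the log2 scale, edgeR adjusted p = 0.735). With each pig left out in turn the *EDNRA* difference was between 0.34 and 0.77.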

How the results depend on the processing

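At the adjusted p, 0 of the 8 genes passed in each of the 5 comparisons under every alternative. At the unadjusted p, the count of 2 in the scar zone fell to 1 (*ADRB1*) with limma on log2(TPM + 1) and on log2(TPM + 0.1), to 0 without IR pigs 9 and 11, and ranged from 0 to 2 with each pig left out. The border zone count ranged from 0 to 1 with each pig left out. With the pig as a replicate block, which pairs the zones, the count within sham pigs was 1, and no other call changed. Of 596 recomputed changes of single genes, 534 kept their direction and their side of the adjusted threshold, and 1 kept its direction and passed that threshold only with DESeq2 (*ACE*, sexes, border zone). Having 4 pigs per group limits the precision. *EDN1* and *ADRA1A* also had low counts, and the part of these in the precision was not tested. Their scar zone SE was 0.29 and 0.57, beside 0.68 for *AGT* and 0.30 for *ADRB1*.

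Directions turned in 61 recomputed values, the cause of which was not tested. For the scar zone without IR pigs 9 and 11, the log2 change was -0.22 for *AGTR1*, -0.19 for *EDN1* and -0.044 for *EDNRB*. In the border zone with sex in the fit it was -0.00032 for *AGTR1* and -0.00027 for *EDNRB*. For the difference between zones, log2(TPM + 0.1), log2(TPM + 1) and the replicate block gave 0.72, 0.67 and 0.56 for *AGT*, and 0.17, 0.15 and 0.020 for *AGTR1*, which was 0.0042 with sex. For *ACE* both TPM fits gave 0.11 and 0.10, and upper-quartile scaling 0.0018. For scar against border zone in IR pigs, both TPM fits and the block gave 0.28, 0.27 and 0.12 for *AGT*, and 0.16, 0.13 and 0.0039 for *EDNRB*. There both TPM fits gave 0.025 and 0.015 for *AGTR1*, and 0.10 and 0.028 for *ADRA1A*.

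With each pig left out, changes that took both signs ranged as follows. For IR against sham pigs they were -0.13 to 0.15 for *AGTR1* in the scar zone and, for the border zone, -0.10 to 0.91 for *AGT*, -0.25 to 0.29 for *AGTR1*, -0.033 to 0.24 for *EDN1*, -0.17 to 0.028 for *EDNRA*, -0.086 to 0.27 for *EDNRB* and -0.70 to 0.076 for *ADRA1A*. Differences between zones were -0.25 to 0.60 for *AGT*, -0.18 to 0.13 for *ACE*, -0.19 to 0.28 for *AGTR1* and -0.14 to 0.33 for *EDN1*. Scar against border zone in IR pigs gave -0.31 to 0.36 for *AGT*, -0.085 to 0.15 for *ACE*, -0.38 to 0.11 for *AGTR1*, -0.089 to 0.38 for *EDN1*, -0.10 to 0.043 for *EDNRB* and -0.35 to 0.10 for *ADRA1A*. In sham pigs it gave -0.70 to 0.13 for *AGT*, -0.069 to 0.24 for *ACE*, -0.0023 to 0.11 for *EDN1* and -0.022 to 0.17 for *ADRB1*. The difference of the IR effect between the sexes was -0.077 to 0.49 for *EDNRA* in the scar zone.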
